A study of Mus musculus with 2 samples.

Results

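Myeloid cells that held transcripts of major histocompatibility complex (MHC) class II were described in single-cell RNA sequencing of mouse cerebellum. The study prepared 1 library from WT mice and 1 library from KIKO mice. KIKO (knock-in knock-out) mice are a mouse model of Friedreich's ataxia, and the WT animals were C57BL/6 littermates. All animals were 6 months old, and cerebella of 4 animals were pooled before dissociation with Accumax, freezing, thawing and capture with 10x 3′ v3.1 chemistry. The animals of a pool cannot be told apart and no pool was repeated, so differences between WT and KIKO carry no test and genotype cannot be told apart from library.

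Cells were chosen by 3 criteria on their unique molecular identifiers (UMIs), which count captured RNA molecules. A member held at least 2 of the 5 genes Tyrobp, Fcer1g, Ctss, Csf1r and Aif1, at least 2 UMIs summed over H2-Aa, H2-Ab1 and H2-Eb1, and none of Cd79a, a gene of B cells. Altogether, 97 of 3451 cells were members, 10 of 1388 in the WT library and 87 of 2063 in the KIKO library. They are called MHC II+ cells below. Myeloid cells that met the other criteria with under 2 MHC class II UMIs are called other myeloid cells, and there were 101 in the WT library and 111 in the KIKO library.

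MHC class II molecules display peptides from ingested proteins to CD4 T cells. H2-Aa and H2-Ab1 encode the chains of I-A, and H2-Eb1 encodes the beta chain of I-E. Cd74 encodes the invariant chain, which guides these molecules to endosomes, where the products of H2-DMa and H2-DMb1 help to load peptide and the products of H2-Oa and H2-Ob restrain that step. The coactivator Ciita drives this set of genes through conserved promoter boxes, among them a Y box that holds an inverted CCAAT sequence. In the brain, macrophages of the meninges, vessels and choroid plexus and dendritic cells carry MHC class II at rest, while parenchymal microglia carry little and acquire it in inflammation.

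The Y box letters are shown for 3 genes whose transcripts are described below, since their promoters share them. The stretches are the 110 bases before the RefSeq start on GRCm38.p6, read 5′ to 3′ on the gene's strand, and TGATTGG is in capitals. H2-Aa lies on the minus strand (stretch chr17:34287824-34287933), and H2-Eb1 and H2-DMb1 lie on the plus strand (chr17:34305757-34305866 and chr17:34153081-34153190).
H2-Aa: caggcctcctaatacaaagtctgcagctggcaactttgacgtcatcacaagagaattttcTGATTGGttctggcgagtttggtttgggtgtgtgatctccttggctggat
H2-Eb1: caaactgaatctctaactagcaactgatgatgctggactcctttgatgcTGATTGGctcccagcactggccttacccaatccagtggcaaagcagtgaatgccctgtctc
H2-DMb1: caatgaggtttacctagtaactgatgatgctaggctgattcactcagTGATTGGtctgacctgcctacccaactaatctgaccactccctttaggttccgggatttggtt
The letters began 50 bases before the start of H2-Aa, 61 before that of H2-Eb1 and 63 before that of H2-DMb1. Of 21 genes of the MHC class II lists, 15 had a RefSeq promoter here with 19 windows, and 8 windows held TGATTGG or its reverse complement CCAATCA in this stretch. H2-DMb2, H2-Eb2, H2-Oa, H2-Ob and Rfx5 were the others with a match. Over all 32851 promoter windows, 4.95% held the letters on either strand within the same 110 bases. A match of letters is a description and not a bound site.

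The WT library held 1388 cells with 11081338 UMIs after filtering, and the KIKO library held 2063 cells with 16377785 UMIs, with medians of 7128.5 and 7234 UMIs per cell. The libraries shared 45 deposited barcodes and none among filtered cells. Female and male mice were used according to the methods of the study, whereas a UMI of a Y-linked gene was found in 1 WT cell and 0 KIKO cells and Xist in 77.4% and 83.6% of cells. All intervals below are 95% intervals of counting error only.

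MHC II+ cells made up 0.720% of WT cells (exact binomial interval 0.346 to 1.32%) and 4.22% of KIKO cells (3.39 to 5.18%), a difference of 3.50 percentage points (2.51 to 4.51). Other myeloid cells made up 7.28% of WT cells and 5.38% of KIKO cells, a difference of -1.90 points (-3.63 to -0.256). Of all myeloid cells, 9.01% in WT (4.41 to 15.9%) and 43.9% in KIKO (36.9 to 51.2%) were MHC II+. These shares follow from the criterion that chose the cells. After each cell had been thinned to 1000 UMIs, the shares of myeloid cells were 7.61% and 42.1%, a difference of 34.5 points against 34.9 without thinning. Just inside the minimum, 2 WT and 6 KIKO cells held exactly 2 MHC class II UMIs, and just outside it 6 WT and 12 KIKO cells held 1.

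Free RNA in droplets gives UMIs in cells that do not make a transcript. Endothelial cells with at least 6 of 12 endothelial genes and none of the 5 myeloid genes were taken as a reference that should lack MHC class II. At least 2 MHC class II UMIs were found in 3 of 890 such cells in WT (0.337%) and 13 of 1305 in KIKO (0.996%), at medians of 7741 and 7541 UMIs per cell. At least 1 was found in 17 of the WT cells (1.91%) and 92 of the KIKO cells (7.05%). The reference leaves out barcodes with myeloid genes, among them any that took up myeloid RNA, so its levels may be too low. The shares of myeloid cells above were over the levels at 2 UMIs, but the part of free RNA in these shares was not tested.

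MHC II+ cells held genes of different myeloid cells, and they were split by the genes P2ry12 and Tmem119, which mark resident microglia, and Mrc1, F13a1 and Pf4, which mark border macrophages. In the KIKO library 38 cells held only the first set and are called microglial-gene cells, 20 held only the second set and are called macrophage-gene cells, 11 held both sets and 18 held neither. In the WT library the numbers were 2, 4, 3 and 1. P2ry12 or Tmem119 was found in 50% of WT members (18.7 to 81.3%) and 56.3% of KIKO members (45.3 to 66.9%), a difference of 6.32 points whose interval of -22.0 to 34.5 covers 0. Mrc1, F13a1 or Pf4 was found in 70% of WT members (34.8 to 93.3%) and 35.6% of KIKO members (25.6 to 46.6%), a difference of -34.4 points (-55.7 to -2.29). After thinning, this second difference was -11.7 points with an interval of -45.4 to 18.1.

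The classes were also described with marker lists. The homeostatic list includes P2ry12 and Tmem119, and the border macrophage list includes Mrc1, F13a1 and Pf4. Counts on these lists thus follow in part from the split. Of the 38 KIKO microglial-gene members, 37 held at least 6 of 14 genes of homeostatic microglia, the list that includes the chemokine receptor Cx3cr1. Among the 20 KIKO macrophage-gene members, 18 held at least 3 and 8 held at least 6 of 15 genes of border macrophages, while 6 held at least 6 homeostatic genes. The 18 KIKO cells with neither set were mixed. Of these, 5 held at least 6 of 12 endothelial genes and 97.0% of the endothelial UMIs of the class, and 3 held at least 6 of 21 dendritic cell genes, with 6, 2 and 3 UMIs of Flt3, the receptor of dendritic cell progenitors. Over all members, 8 of 87 KIKO cells and 0 of 10 WT cells held at least 6 endothelial genes. No member of either library held 2 or more genes of T or NK cells.

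The 10 WT members can be given one by one. The 3 cells with both gene sets held 11, 180 and 395 MHC class II UMIs, and the 4 macrophage-gene cells held 179, 186, 305 and 312. Both microglial-gene cells held only 2. The cell with neither set held 376, together with 5 UMIs of the monocyte receptor Ccr2, 3 of Flt3 and 37 of Plac8. The macrophage-gene cell with 312 UMIs held 7 UMIs of Ccr2, 30 of the lectin Mgl2 and 1 of Apoe, and it had genes of 8 of the 15 monocyte markers, so its label rests on 5 UMIs of Mrc1. Each WT member thus held either 2 UMIs or at least 11, and the cells with 2 were those with microglial genes alone.

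Transcript levels of MHC class II followed these classes, which are described and not tested, because the 3 genes chose the cells. In KIKO the lowest, median and highest sums were 2, 20 and 305 UMIs in microglial-gene members, 2, 115 and 411 in members with both sets, 12, 139 and 530 in macrophage-gene members and 2, 31 and 643 in members with neither set. The classes overlapped over most of their range. Per 10000 UMIs of a cell, the KIKO medians were 37.0, 121, 204 and 68.9, and the WT medians 1.62, 209, 275 and 239. H2-Aa (chr17:34282744-34287823) reached 2219 CPM (UMIs of the gene scaled to a total of 1000000 UMIs of the summed cells) in KIKO microglial-gene members and 8133 in KIKO macrophage-gene members, beside 8663 in the 4 WT macrophage-gene members. H2-Ab1 (chr17:34257689-34269419) gave 1925, 7937 and 7884 CPM and H2-Eb1 (chr17:34305867-34316674) 1783, 7366 and 8110 CPM in the same order.

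**Figure D1:**
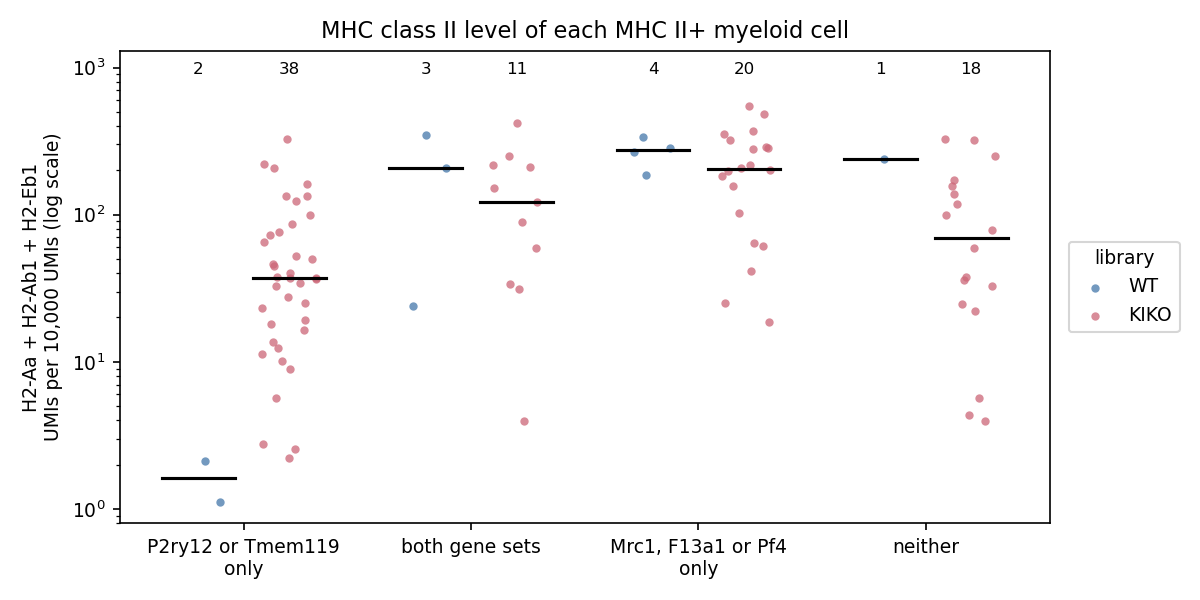
UMIs of H2-Aa, H2-Ab1 and H2-Eb1 per 10000 UMIs (log axis) in each MHC II+ cell, by library and by the gene sets the cell held; each point is 1 cell, each bar a median, and the numbers at the top count cells. The median of the 2 WT microglial-gene cells is 1.62 and that of the 38 KIKO microglial-gene cells 37.0, while the medians of the macrophage-gene cells are 275 in WT and 204 in KIKO.

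The remaining genes of the pathway were not used to choose the cells. Cd74 was found in all 10 WT and all 87 KIKO members, with 3 to 409 UMIs per WT cell (median 137.5) and 1 to 591 per KIKO cell (median 56). It was also found in 19 of 101 and 34 of 111 other myeloid cells, with at most 8 and 22 UMIs. The lowest members thus overlapped with the highest other cells, and the medians of the other cells were 0. Ciita (chr16:10480059-10528418) gave UMIs in 2 of 10 WT members and 18 of 87 KIKO members, and in 0 of 101 and 0 of 111 other myeloid cells. In KIKO these were 36 UMIs against a floor of 3, so Ciita was at least 12.99-fold higher in members. H2-DMb1 stood at 567 CPM in WT members and 320 CPM in KIKO members, against 54.2 and 31.7 CPM in other myeloid cells. H2-Oa, part of the inhibitory DO molecule, had a different distribution. It was found in 16 of 38 KIKO microglial-gene members (96.9 CPM) and in 0 of 20 KIKO macrophage-gene members, where a count of 0 allows up to 17.8 CPM (3 counts).

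Few WT and many KIKO cells with microglial genes held MHC class II. Since these shares use the genes of the rule, they are a description. Of the myeloid cells that held P2ry12 or Tmem119 and none of Mrc1, F13a1 and Pf4, 2 of 56 were MHC II+ in WT (3.57%, 0.435 to 12.3%) and 38 of 104 in KIKO (36.5%, 27.3 to 46.6%), a difference of 33.0 points (20.8 to 42.9). With at least 5 UMIs as the minimum the numbers were 0 of 56, which allows a share of up to 5.36% (3 cells), and 31 of 104 (29.8%). With at least 20 UMIs they were 0 of 56 and 20 of 104, and with at least 100 they were 0 of 56 and 5 of 104. Thinning to 1000 UMIs left 1 of 33 (3.03%) and 9 of 59 (15.3%), a difference of 12.2 points whose interval of -1.93 to 23.8 covers 0. In the same cells before thinning, median depth was 8261 UMIs in the 54 WT cells without MHC class II, 5841 in the 66 KIKO cells without it and 6416 in the 38 KIKO cells with it.

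Among myeloid cells with Mrc1, F13a1 or Pf4, MHC class II was common in both libraries. Of these, 7 of 11 in WT (63.6%, 30.8 to 89.1%) and 31 of 37 in KIKO (83.8%, 68.0 to 93.8%) were MHC II+, a difference of 20.1 points with an interval of -5.77 to 49.7. Of the myeloid cells with neither gene set, 1 of 44 in WT and 18 of 57 in KIKO were MHC II+, a difference of 29.3 points (15.1 to 42.3). These cells were mixed, and 5 of the 18 held at least 6 endothelial genes. So did 15 of 101 WT and 14 of 111 KIKO other myeloid cells, of which 2 and 2 were microglial-gene cells. Nkg7, a gene of the T and NK cell list, was found in 14 of the 111. The part of such barcodes in the shares was not tested. The WT cells with neither set and no MHC class II were shallow, with a median of 1654 UMIs against 6320 in KIKO, and after thinning the shares were 5.66% and 51.6%.

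**Figure D2:**
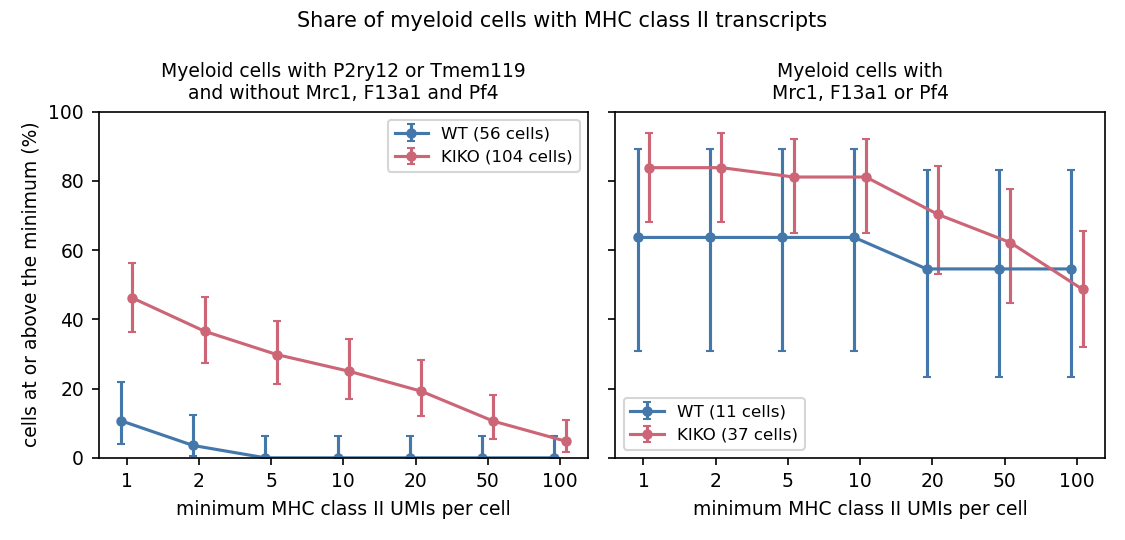
Share of myeloid cells (percent, with exact 95% binomial intervals) that held at least the number of MHC class II UMIs on the horizontal axis, for cells with microglial genes only and cells with macrophage genes, by library. WT microglial-gene cells are at 0 from 5 UMIs on, where KIKO microglial-gene cells are at 29.8%. The shares of cells with Mrc1, F13a1 or Pf4, which include cells with both gene sets, lie above both.

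The 38 MHC II+ and 66 MHC class II-negative microglial-gene cells of the KIKO library come from the same pool and were compared gene by gene. All ratios below are of CPM of the summed UMIs, on the log2 scale, over genes with at least 50 CPM in one group and at least 30 UMIs in both together. The comparison was added after the data had been seen, and the 3 rule genes, which divide the cells, were left out of it. Among 3611 genes, 4.18% (151) reached 2-fold higher in MHC II+ cells and 7.31% (264) reached 2-fold lower, and the median over these genes was -0.09.

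Antigen presentation genes were mostly higher in the MHC II+ microglial-gene cells. Of 10 tested genes of the MHC class II pathway list, 4 passed 2-fold higher and 2 lay below 0, with a median of 0.61. Cd74 was higher by 5.65 (5.317 to 5.995), H2-DMb1 by 2.17 (1.42 to 2.98) and H2-Oa by 1.91 (0.90 to 3.01). All 13 tested genes of the MHC class I list lay above 0, with a median of 0.87, and 4 of the 13 passed 2-fold. These were the non-classical class I gene H2-Q7 at 2.20 (found in 31 of 38 against 17 of 66 cells), the peptide transporter subunit Tap1 at 2.17, the immunoproteasome subunit Psmb9 at 1.43 and the heavy chain gene H2-D1 at 1.06. The co-stimulation list had 8 tested genes, 4 of them past 2-fold higher and a median of 0.99. Its members Cd274, which encodes the inhibitory ligand PD-L1, and Slamf7, an adhesion receptor of leukocytes, were higher by 3.34 (10 of 38 against 3 of 66 cells) and 3.04 (12 of 38 against 3 of 66 cells). All 4 tested genes of the monocyte list passed 2-fold higher as well, with a median of 2.14. Both tested genes of the mural and fibroblast list did so too, with a median of 5.74, where within the cells with MHC class II a single cell held 99.4% of the UMIs of Rgs5, and a single cell 100% of those of Vtn. Of 5 tested endothelial genes 3 passed 2-fold lower, with a median of -1.54, which was 0.23 without barcodes with at least 6 endothelial genes. The part of RNA of these other cells in the differences was not tested.

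Single genes of lipid transport, oxidant production and iron storage also stood apart. Apoe, the main lipoprotein of glia (chr7:19696109-19699188), was found in 25 of 38 and 25 of 66 cells, with medians of 5 and 0 UMIs and highest counts of 1200 and 46. Its log2 ratio was 4.54 (4.35 to 4.74) and 4.06 without the highest cell. The highest counts among the 3653 Apoe UMIs of the MHC II+ cells were 1200, 896, 352, 316 and 242. Those cells held 4, 3, 3, 2 and 4 of the 15 border macrophage genes, and their part in the differences was not tested. The level in the MHC class II-negative cells was 507 CPM, beside 794 CPM in the endothelial reference cells and 11802 CPM in the MHC II+ cells. The part of free RNA in these levels was not tested. Cybb, the catalytic subunit of the phagocyte NADPH oxidase, was higher by 4.78 (15 of 38 against 5 of 66 cells), the complement gene C4b by 4.39, Lyz2, the lysozyme of myeloid cells, by 2.41, the hyaluronan receptor Cd44 by 2.47 and the receptor Axl by 1.97. In the order given for Apoe, the same cells held 53, 126, 49, 46 and 33 of the 485 Lyz2 UMIs. Fth1, the heavy chain of ferritin, was higher by 1.44, and by 1.03 without the cell that held 29.9% of its UMIs. The interferon-induced chemokine Cxcl10 was higher by 3.43 on 6 of 38 against 3 of 66 cells. Of the 9 tested genes of disease-associated microglia, 5 passed 2-fold higher with a median of 1.65, but the median was -0.40 once barcodes with genes of other cell classes were left out, which kept 18 and 31 cells. Without the upper limit of 20000 UMIs per cell, which left out large barcodes, Cybb stood at 1.70, Cd274 at 1.42, Apoe at 1.22 and Lyz2 at 0.96.

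Homeostatic genes were lower in the MHC II+ microglial-gene cells. Of 14 tested, 13 lay below 0 and 4 passed 2-fold lower, with a median of -0.80. These 4 were the fructose transporter Slc2a5 at -1.77, the Fc receptor-like gene Fcrls at -1.45, the matrix protein Sparc at -1.37 and the lysophosphatidylserine receptor Gpr34 at -1.001. Without the upper limit on UMIs the median was -0.34 and Sparc stood at -0.78. Genes that tissue dissociation induces were lower as well. All 15 genes of the dissociation and heat shock list lay below 0, with a median of -0.57, and 4 passed 2-fold, among them the chaperone Hspa1a at -1.23 and the transcription factor Jun at -1.06. Nfkbia, the inhibitor of NF-kappaB and an early response gene, stood at -1.34 (-1.56 to -1.14). Whether the response to dissociation has a part in the other differences was not tested.

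Iron genes were mixed, with 1 of 7 past 2-fold higher and 4 lower. The iron exporter Slc40a1 stood at -2.22 (2 of 38 against 19 of 66 cells) and haem oxygenase Hmox1 at -1.62, while Fth1 was higher. The list median of -1.19 turned to 0.23 with a lower minimum of 10 UMIs and to 0.33 with a minimum of 100 UMIs. The lowest ratios among genes found in at least 5 cells were those of the deubiquitinase gene Otud1 at -3.42 and the sulphotransferase gene Chst8 at -3.24. Without barcodes that held genes of other classes, Chst8 stood at -0.83.

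**Figure D3:**
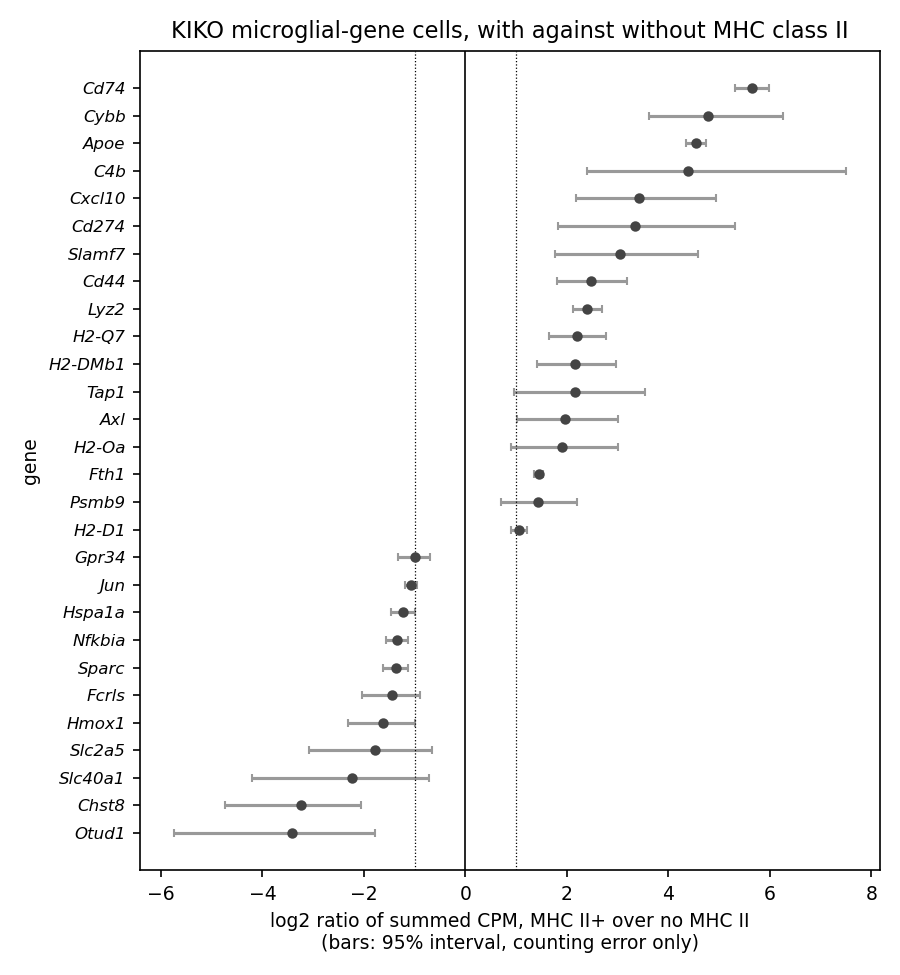
Log2 ratio of summed CPM in 38 MHC II+ over 66 MHC class II-negative microglial-gene cells of the KIKO library for genes named in the text, each with its exact 95% interval of counting error; dotted lines mark 2-fold. Cd74 stands at 5.65 and Otud1 at -3.42.

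Members with P2ry12 or Tmem119 were compared with members without either in the KIKO library, 49 against 38 cells. Among 3744 genes, 10.7% (402) reached 2-fold higher and 10.9% (409) reached 2-fold lower. With the WT members added, the shares were 11.3% (432) and 11.3% (430) of 3811 genes. Members with the microglial genes were higher for the rest of the homeostatic list, with 9 of 10 tested genes past 2-fold higher and a median of 1.81. Gpr34 had a ratio of 3.08 (35 of 49 against 9 of 38 cells) and Cx3cr1 of 2.39 (37 of 49 against 13 of 38 cells). The proteases Ctsd and Ctsl stood at 2.07 and 2.05, while the lysosome and lipid list had 3 of 12 genes past 2-fold higher, none lower and a median of 0.25. Of 9 genes of disease-associated microglia, 5 passed 2-fold higher and none lower, with a median of 1.40, and the tetraspanin Cd9 stood at 2.11. The cytokine gene Il1a was higher by 3.59 (23 of 49 against 6 of 38 cells), the integrin Itgam by 2.36 and the growth factor receptor Csf3r by 1.94.

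Members without P2ry12 and Tmem119 held more of several other groups. The border macrophage list had 8 of 11 tested genes past 2-fold lower in members with the microglial genes, with a median of -2.38, and the monocyte list 6 of 7 with a median of -1.41. Mgl2, a lectin of macrophages and dendritic cells, stood at -6.15 (1 of 49 against 9 of 38 cells). Interferon response genes were lower in all 10 tested, 6 of them past 2-fold, with a median of -1.15, Ifitm3 at -2.80 and Isg15 at -2.38. Lyz2 stood at -1.14, and at -0.97 without its highest cell. All 9 tested endothelial genes were lower too, with a median of -3.67, Adgrl4 at -7.01 and Cldn5, the tight junction claudin, at -5.75. These endothelial differences rested on few barcodes. Without barcodes that held at least 6 endothelial genes the median was 0.81, and Adgrl4 at 0.22 and Cldn5 at 1.22 had intervals that cover 0. In that setting 443 of 3347 genes passed 2-fold higher and 252 lower.

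Members with Mrc1, F13a1 or Pf4 were compared with the other members of the KIKO library, 31 against 56 cells. Among 3715 genes, 6.43% (239) reached 2-fold higher and 11% (410) reached 2-fold lower. With the mean over single cells in place of the sum, 400 were higher and 394 lower. With WT members added, 6.03% (230) and 11.4% (436) of 3813 genes passed 2-fold, and with the mean over single cells 387 and 405. The remaining border macrophage genes went with the split, with 7 of 8 tested genes past 2-fold higher and a median of 3.37. Ms4a7 was higher by 3.55 (21 of 31 against 5 of 56 cells), the scavenger receptor Stab1 by 3.20 (20 of 31 against 11 of 56 cells) and the C-type lectin Clec12a by 2.57 (17 of 31 against 5 of 56 cells). Genes outside the list included the endocytic adaptor Dab2 at 4.56 (23 of 31 against 7 of 56 cells), the NK receptor family gene Klra2 at 4.72 (17 of 31 against 3 of 56 cells) and the scavenger receptor Cd36 at 2.83, which stood at 0.58 without barcodes of other classes. Ceruloplasmin (Cp) was higher by 2.69 with 58.2% of its UMIs in 1 cell, and by 1.504 without that cell.

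Presentation genes were mixed in the same cells. The 3 MHC class II genes used by the rule lay between 1.36 and 1.49. Of 11 other tested genes of the MHC class II pathway 3 passed 2-fold higher and 2 lower, with a median of -0.17, and of 13 MHC class I genes none passed, with a median of -0.28. Ciita stood at 1.72 (11 of 31 against 7 of 56 cells), H2-DMb1 at 1.36 and H2-DMa at 1.04, and the inhibitory H2-Oa at -1.71 (5 of 31 against 22 of 56 cells). Apoe had medians of 237 and 7 UMIs per cell and a ratio of 1.45 (1.40 to 1.497), and Lyz2 a ratio of 1.92. Without barcodes of other classes Apoe stood at 0.92. Chemokines were uneven. The list had 8 of 12 tested genes past 2-fold higher and 1 lower, with a median of 1.38, led by the monocyte attractants Ccl7 at 4.61 and Ccl12 at 2.97 and the neutrophil attractant Cxcl2 at 3.74. Ccl7 was found in only 6 of 31 cells, 2 of which held at least 100 UMIs, and Cxcl2 in 13 of 31 cells, 2 of which held at least 100.

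Microglial genes were lower in members with the macrophage genes. The homeostatic list had a median of -1.02 with 6 of 12 genes past 2-fold lower, and the list of disease-associated microglia a median of -1.60 with 6 of 9 lower and 1, Apoe, higher. Cd9 stood at -2.99 (16 of 31 against 49 of 56 cells), Ctsd at -1.94 and Ctsl at -1.35, while the lysosome and lipid list had 2 of 12 genes past 2-fold higher, 1 lower and a median of -0.04. Ldhb, a lactate dehydrogenase subunit, stood at -3.87 (2 of 31 against 33 of 56 cells), and Cd274 at -1.33, or -0.80 without its highest cell. Endothelial genes were lower in 7 of 8 tested, with a median of -1.72. Without barcodes with at least 6 endothelial genes, which numbered 2 of 31 and 6 of 56 cells, that median was -0.73. Of 3350 genes in that setting, 242 passed 2-fold higher and 292 lower. The endothelial median was 0.33 without the upper limit on UMIs and 0.28 without barcodes of other classes.

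MHC II+ cells were compared with the other myeloid cells of their own library. Of those other cells, 54 of 101 in WT and 66 of 111 in KIKO were microglial-gene cells, while 43 and 39 held neither gene set. In KIKO, with 3944 genes, 4.18% (165) reached 2-fold higher in members and 7.1% (280) reached 2-fold lower. With trimmed mean of M values (TMM) factors the numbers were 219 and 193, and the median of all genes moved from -0.12 to 0.06. Cd74 was higher by 6.75 (6.45 to 7.06), H2-DMb1 by 3.33 and H2-DMa by 1.99. Of 10 tested genes of the MHC class II pathway list, 6 passed 2-fold higher and 2 lay below 0, with a median of 1.21. All 13 tested MHC class I genes lay above 0 with a median of 0.64, and 2 passed 2-fold, Tap1 among them at 1.81. All 7 tested co-stimulation genes lay above 0 as well, with a median of 1.58 (0.64 without barcodes of other classes). Cd86, which engages CD28 on T cells, was higher by 1.12 (72 of 87 against 68 of 111 cells) and Slamf7 by 2.88. The T cell attractant Cxcl9 had 361 UMIs in 13 of 87 members, 7 of them cells with neither gene set, and 0 UMIs in the 111 other myeloid cells, in the 10 WT members and in the 101 other WT myeloid cells. A single cell held 64.8% of these UMIs.

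Genes of border macrophages and of phagocytes followed. The border macrophage list had 6 of 11 tested genes past 2-fold higher with a median of 1.02 (0.27 without the upper limit on UMIs), among them Clec12a at 4.64 and Ms4a7 at 4.04, and the chemokine list 7 of 12 with a median of 1.18. Klra2 was higher by 5.20 (20 of 87 against 2 of 111 cells), the endosomal GTPase Rab7b by 4.92 (30 of 87 against 2 of 111 cells), Cybb by 3.76, Apoe by 3.35 and Lyz2 by 3.23. Plbd1, a phospholipase B-like protein of phagocytes, gave 61 UMIs in 17 of 87 members and 0 in the other cells, at least 22.0-fold higher. The homeostatic list had 6 of 14 genes past 2-fold lower and a median of -0.97. T and NK cell genes were lower, with all 6 tested past 2-fold, Skap1 at -6.68, Cd3d at -6.28 and Nkg7 at most 0.0172-fold. These UMIs came from few of the other myeloid cells, since Skap1 was found in 14 of 111, Cd3d in 10 and Nkg7 in 14. All 15 genes of the dissociation and heat shock list lay below 0, with a median of -0.52. Of 11 tested endothelial genes 4 passed 2-fold lower, with a median of -0.97, or 0.02 without barcodes with at least 6 endothelial genes, which numbered 8 of 87 members and 14 of 111 other cells. Leaving out barcodes of other classes kept Cd74 at 5.77 and Cybb at 2.84, and without the upper limit of 20000 UMIs per cell Apoe stood at 1.74 and Rab7b at 2.27.

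The same comparison in WT rested on 10 members against 101 cells. Among 3796 genes, 7.22% (274) reached 2-fold higher and 19.9% (756) reached 2-fold lower, and the median over these genes was -0.18. Cd74 was higher by 7.95 (7.49 to 8.46), Cybb by 4.84 (7 of 10 against 7 of 101 cells), Ms4a6c by 4.42 (8 of 10 against 8 of 101 cells), H2-DMb1 by 3.39, Lyz2 by 3.05 and Apoe by 2.50. Of 9 tested genes of the MHC class II pathway list, 4 passed 2-fold higher and 2 lower, with a median of 0.38. Cxcl2 stood at 4.40 (7 of 10 against 11 of 101 cells), and 48.7% of its UMIs were in 1 cell. Of 9 monocyte genes 8 passed 2-fold higher and 1 lower, with a median of 2.25. Genes of this list could rest on few WT members. For Crip1, 206 of the 285 UMIs of WT members were in 1 cell. Plac8, also on the list, was found only in the WT member with neither gene set, with 37 UMIs. Of 14 homeostatic genes 12 passed 2-fold lower, with a median of -2.09, or -0.62 when cells with 1 MHC class II UMI counted as members. Endothelial genes were lower in all 10 tested, with a median of -2.80. At least 6 endothelial genes were held by 15 of the 101 other myeloid cells and by no member, and the part of these barcodes was not tested.

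KIKO members were compared with WT members last, 87 against 10 cells, whose classes differ as given above. Among 3688 genes, 15.2% (560) reached 2-fold higher in KIKO and 6.81% (251) reached 2-fold lower. With TMM factors the numbers were 692 and 175, and the median of all genes moved from 0.03 to 0.17. Of 10 tested monocyte genes 6 passed 2-fold lower in KIKO and 1 higher, with a median of -1.47. Crip1, a small LIM protein, stood at -3.54, but 72.3% of its WT UMIs came from 1 cell, and without it the ratio was -1.92. Lgals1, which encodes galectin-1, stood at -2.73, Lsp1, a cytoskeletal protein of leukocytes, at -2.58, the chemokine Ccl6 at -2.48 and the calcium-binding S100a11 at -2.22, and each had between 34.2% and 48.8% of its WT UMIs in 1 cell. Cxcl2 had 429 UMIs in 7 of 10 WT cells and 365 in 19 of 87 KIKO cells, a ratio of -2.99 (-3.20 to -2.79), and -2.27 without the WT cell with 209 UMIs. Without the upper limit on UMIs, which added 1 WT and 14 KIKO members, Lsp1 stood at -0.86, S100a11 at -0.40 and the monocyte median at -0.57.

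Higher in KIKO members were H2-Q7 at 1.76 (64 of 87 against 4 of 10 cells), Cd9 at 1.30 (65 of 87 against 7 of 10) and Cd86 at 1.04 (72 of 87 against 10 of 10). Cd9 was the highest of the 12 tested genes of disease-associated microglia. That list had 1 gene past 2-fold higher and 5 lower, with a median of -0.43. The MHC class I list had 2 of 13 tested genes past 2-fold higher and none lower, a share near that of all genes, with a median of 0.49. The homeostatic list had 3 of 12 higher and 1 lower, with a median of 0.58. The homeostatic median was -0.54 and Cd9 stood at 0.33 when cells with 1 MHC class II UMI were added, which made 16 WT members. The heat shock protein gene Hspb1 at 5.15 and Tnfaip2 at 4.50 were each compared with 1 WT UMI, and without the upper limit Hspb1 stood at 0.32. All 8 tested endothelial genes were past 2-fold higher with a median of 2.64, and Cldn5 was at least 8.11-fold higher on 165 UMIs in 11 of 87 cells. Without barcodes with at least 6 endothelial genes, the median of the list was 0.18. Of 3473 genes in that setting, 466 passed 2-fold higher and 240 lower.

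Within members that held Mrc1, F13a1 or Pf4, 31 KIKO and 7 WT cells could be set side by side, with 7 WT cells too few for a count over all genes. Cd74 stood at -0.38 and H2-Aa at -0.31, KIKO against WT. Cxcl2 stood at -2.50, Crip1 at -2.30 and Ccl6 at -1.81, where 1 WT cell held 48.7%, 84.6% and 61.0% of the WT UMIs, while Mrc1, which the split uses, stood at 1.64 with 48.5% of its KIKO UMIs in 1 cell, the chemokine Ccl2 at 1.23 with 73.3% of its WT UMIs in 1 cell, Cd86 at 0.98 and Apoe at 0.66. These cells are part of the members compared above, and all 429 WT UMIs of Cxcl2 were in the 7 WT cells.

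**Figure D4:**
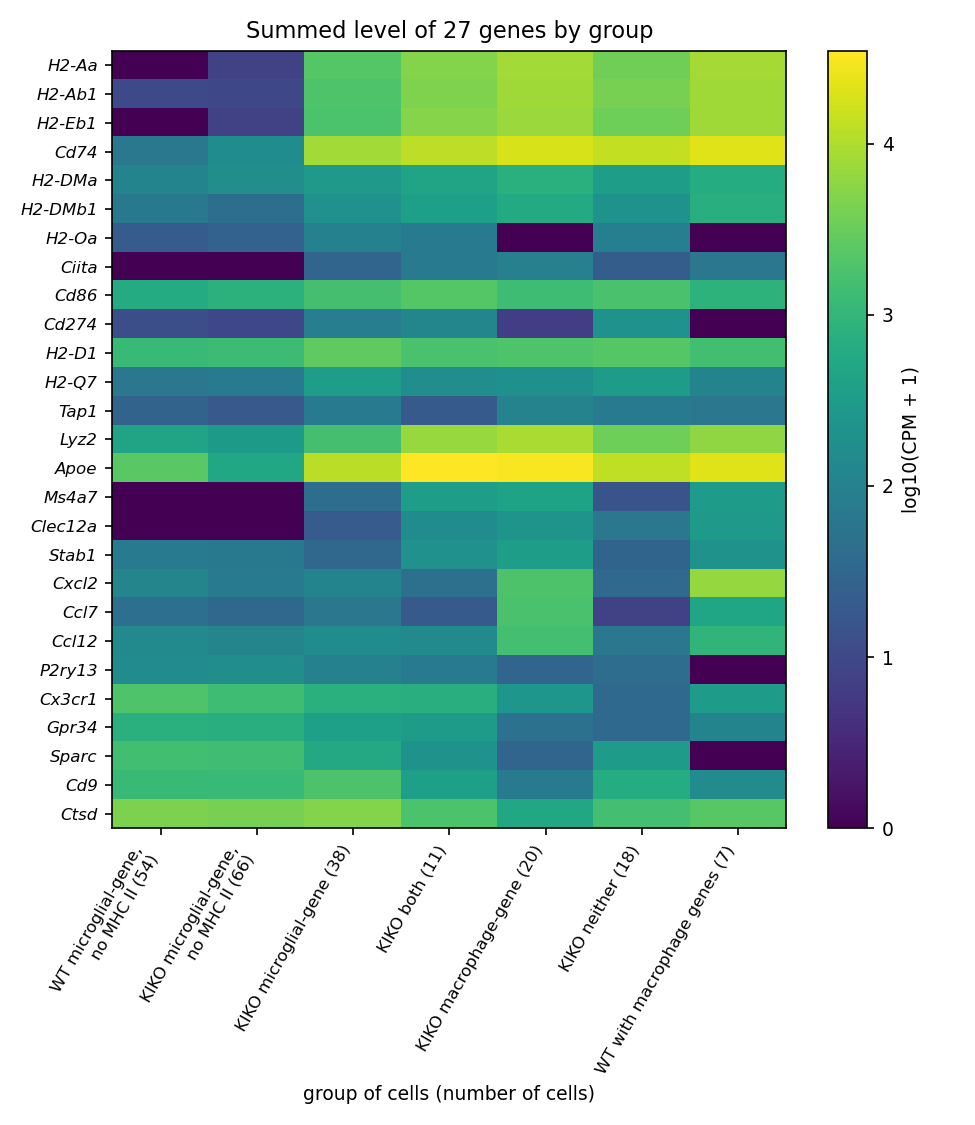
Summed level, as log10(CPM + 1), of 27 genes (rows) in 7 groups of cells (columns) by library, from MHC class II and presentation genes through macrophage and chemokine genes to microglial genes. Cd74 stands at 8206 CPM or more in the 5 columns of MHC II+ cells and at 164 CPM in KIKO microglial-gene cells without MHC class II, and H2-Oa is at 0 in KIKO macrophage-gene members where H2-DMb1 stands at 606 CPM.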

How the data were processed

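Single-cell libraries of WT and KIKO cerebellum, 1 each, were analysed from matrices deposited by the authors, which hold raw UMI counts (whole numbers, genes by barcodes) produced with Cell Ranger (7.0.1 in the file headers) against mm10. Barcodes with over 500 genes, over 1000 and at most 20000 UMIs and under 10% mitochondrial UMIs were kept, and doublets were not removed. UMIs were summed over the cells of a group and scaled to CPM. For ratios of 2 Poisson counts exact intervals were used, for shares a Clopper-Pearson interval and for differences of shares a Newcombe interval, all at 95%. A count of 0 was replaced by a floor of 3 counts over the group, which makes a bound. No test was made, because each group holds 1 library and cells are not replicates.

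Genes were compared with at least 50 CPM in one group and at least 30 UMIs in both together, and called at 2-fold. Named genes were those of 28 lists and, per comparison, the 10 highest and 10 lowest ratios among genes found in at least 5 cells of the higher group with no cell holding over 50% of its UMIs; genes of the rule or split and sex-linked genes were left out of that ranking, and values of rule genes are given as description only. Members, lists and named genes were chosen with earlier results of these data known. Some genes are not reported here. Scripts were tested on simulated counts. Alternatives covered depth limits, MHC class II and myeloid minima, Cd79a, thinning to 1000 UMIs, barcodes with genes of other classes, TMM factors, the mean over cells and the gene filter. Gene coordinates are from GENCODE vM21 and promoters from RefSeq. Python 3.11.15, numpy 2.4.6, scipy 1.17.1, pandas 2.3.3, R 4.3.3 and edgeR 4.0.16 (TMM factors only) were used.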

Additional observations from a re-analysis of the deposited data

Results flagged for a closer look

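Ratios of MHC II+ cells to other myeloid cells of the same library (log2 of CPM) lay on opposite sides of 0 in the WT and KIKO libraries, with intervals that did not reach 0, for 13 genes of the lists. The difference between the libraries was not tested, since each holds 1 pool, and the WT values rest on 10 members. The share of such genes over all genes is not given here. Mrc1, F13a1 or Pf4 was found in 70% of WT and 35.6% of KIKO members, and the part of this make-up was not tested.

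The itaconate enzyme gene Acod1 and Cxcl10 had 0 UMIs in the WT members against 82 and 81 in the other WT myeloid cells, which bounds their WT ratios at most -2.27 and -2.25 with the floor of 3 counts, while they stood at 1.18 and 1.501 in KIKO. The 81 Cxcl10 UMIs were in 8 of 101 cells, with 39 in the highest, so the WT bound rests on few cells. In KIKO, Cxcl10 was found in 13 of 87 members and 5 of 111 other myeloid cells. The microglial tetraspanin Cd9 stood at -1.35 and 0.22, the transcription factor Irf8 at -0.87 and 0.66, and the cytokine Tnf at -0.97 and 0.42. The 3 chains of complement C1q were lower in WT and higher in KIKO members, with C1qa at -0.58 and 0.41, C1qb at -0.22 and 0.36 and C1qc at -0.54 and 0.32. The reverse held for S100a4 at 2.25 and -2.29, S100a6 at 1.43 and -2.49, Nfkbia at 0.37 and -0.73 and Jund at 0.36 and -0.17. In the 7 WT members with Mrc1, F13a1 or Pf4, 1 cell held all 25 UMIs of S100a4, and 1 cell all 45 of S100a6. Rgs5, a gene of pericytes, stood at -4.02 and 0.62, with 98.1% of the UMIs of KIKO members in 1 cell.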

How the results depend on the processing

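Of 1403 values recomputed for 133 genes and list medians under the alternatives, 1390 kept their sign. Of the same values, 202 moved out of the interval of the main setting, or for list medians out of its quartiles. A further 10 that were past 2-fold in the main setting changed sign. Among 174 values of shares and counts of genes past 2-fold, 145 stayed near the main value and 29 moved. Without barcodes of other classes, KIKO members were 1.99% of cells and WT microglial-gene cells with MHC class II 0%. Of KIKO myeloid cells with Mrc1, F13a1 or Pf4, 94.1% were then MHC II+. In that setting 291 (microglial split) and 306 (macrophage split) genes in KIKO, 333 and 327 in both libraries and 170 in KIKO microglial-gene cells passed 2-fold, over fewer genes and cells, and in the last comparison the medians of the disease-associated and iron lists were -0.40 and 0.12. The endothelial median of the macrophage split was then 0.28, and 0.33 without the upper limit on UMIs. With 5 MHC class II UMIs, the share of WT microglial-gene cells was 0%. Thinning gave KIKO members 2.96% of cells, members with P2ry12 or Tmem119 14.3% (WT) and 16.4% (KIKO) and KIKO microglial-gene cells with MHC class II 15.3%. With 10 UMIs and no CPM minimum, genes past 2-fold were 1977 between libraries, 2054 and 2116 (microglial split, KIKO and both), 1927 and 1954 (macrophage split), 2140 and 1902 (members against other cells, WT and KIKO) and 1504 (microglial-gene cells), and with 100 UMIs 224, 233, 261, 158, 184, 246, 199 and 72. These counts are over 7368 to 9904 compared genes with 10 UMIs and 1235 to 2788 with 100 UMIs, against 3611 to 3944 in the main setting. The iron median was 0.23 with 10 UMIs and 0.33 with 100 UMIs. Without barcodes with 6 endothelial genes, the microglial split had Cldn5 at 1.22, Adgrl4 at 0.22 and the endothelial list at 0.81, that list was 0.23 between microglial-gene cells, and Cldn5 between libraries gave no direction, since WT members hold 0 UMIs. The endothelial median of KIKO members against other cells was then 0.02, and the homeostatic median between libraries was -0.54 with 1 MHC class II UMI. This alternative and the comparison within microglial-gene cells were chosen after seeing the data. Alternatives that left under 10 cells in a group were not run. No paired analysis was possible because WT and KIKO are 1 library each, so no replicate could be left out either. In the 10 WT members 1 UMI is 9.30 CPM, and more in their subsets.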
